A study of Rattus norvegicus with 2 samples.

Results

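A set of 10 genes of the adrenal gland, Akr1b7, Star, Cyp11a1, Cyp11b1, Cyp11b2, Cyp21a1, Th, Dbh, Pnmt and Chga, were followed in the kidneys of PCK rats given pioglitazone or vehicle. A gene was included where the transcript accession of a probe belongs to it. This found 9 probes in 18 spots for 8 of the 10 genes, among 13435 named genes on the array, and no probe was matched to Star or Pnmt, which have no values here. The genes were brought together because Akr1b7 and Cyp11b1 had differed between the arrays, so these differences are described and not tested.

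The animals were female PCK rats, which carry a mutation in Pkhd1 and develop cystic disease of the kidney and liver. Between weeks 4 and 20 of life the treated group was gavaged daily with 10 mg/kg of pioglitazone, a diabetes drug that activates PPAR-gamma. The control group received the vehicle alone, 0.5% DMSO. Whole-kidney RNA was pooled within each group, from 5 rats per pool in one description and 3 in another, and the Cy3-labelled RNA of a pool went on 1 array. Both groups share the strain and the sex, rats without the mutation are not analysed here, and 1 array per group leaves no spread between animals and no test.

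The outer part of the adrenal gland, the cortex, makes corticosteroids from cholesterol. Star carries cholesterol into the mitochondrion, Cyp11a1 cleaves its side chain, Cyp21a1 hydroxylates the intermediates, and Cyp11b1 and Cyp11b2 complete corticosterone and aldosterone. The inner part, the medulla, holds chromaffin cells that make catecholamines through Th, Dbh and Pnmt and store them with chromogranin A, the product of Chga. The kidney receives sympathetic nerves that also use Th and Dbh, and its tubules respond to the hormones of both layers.

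The arrays gave 31127 and 31728 spots well above background (vehicle first, here and below), the software's own test of a spot against its surroundings. Signals are background-subtracted intensities. Differences are pioglitazone minus vehicle on the log2 scale, after each array's 75th percentile was set equal, which removed a shift of 0.08. Each difference is given with its technical error, the software's error of both spots combined, which holds no spread between animals. For a probe with several spots it is the mean of the single-spot errors and not the error of the averaged difference. Of the kidney markers with a probe, all 10 were well above background on both arrays, among them Umod of the thick ascending limb (195000 and 220000) and Lrp2 of the proximal tubule (52900 and 57100).

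The sequence just before the transcription start was available for 5 of the 10 genes from RefSeq, on the GRCr8 build of the rat genome. It is shown for Akr1b7, the gene that was higher with pioglitazone, for Cyp21a1 and Cyp11a1, steroid genes not well above background, and for Th, which had the most spots. The 250 bases before the start are given 5′ to 3′ on the gene's own strand. Capitals mark AGGTCA, the hexamer that many nuclear receptors bind, AAGGTCA, the extended form bound by the steroid cell factor Nr5a1, and TGACGTCA, the cyclic AMP response element, each on either strand. The coordinates are chr4:64043720-64043969 (plus strand) for Akr1b7, chr20:4028141-4028390 (plus) for Cyp21a1, chr8:67318415-67318664 (plus) for Cyp11a1 and chr1:207508219-207508468 (minus) for Th.
Akr1b7: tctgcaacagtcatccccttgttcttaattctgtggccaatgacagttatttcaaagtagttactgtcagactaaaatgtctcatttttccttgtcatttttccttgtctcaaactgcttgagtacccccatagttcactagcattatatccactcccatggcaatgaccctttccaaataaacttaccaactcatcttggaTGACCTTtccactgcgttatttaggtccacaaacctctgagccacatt
Cyp21a1: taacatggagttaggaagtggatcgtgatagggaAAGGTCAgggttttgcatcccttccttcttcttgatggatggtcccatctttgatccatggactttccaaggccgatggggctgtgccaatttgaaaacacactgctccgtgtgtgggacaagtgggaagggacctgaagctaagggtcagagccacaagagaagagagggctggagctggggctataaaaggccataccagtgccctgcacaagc
Cyp11a1: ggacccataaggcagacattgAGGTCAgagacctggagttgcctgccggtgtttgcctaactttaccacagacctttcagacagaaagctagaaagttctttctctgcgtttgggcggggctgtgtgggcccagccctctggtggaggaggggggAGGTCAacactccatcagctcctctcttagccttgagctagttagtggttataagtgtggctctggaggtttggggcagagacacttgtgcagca
Th: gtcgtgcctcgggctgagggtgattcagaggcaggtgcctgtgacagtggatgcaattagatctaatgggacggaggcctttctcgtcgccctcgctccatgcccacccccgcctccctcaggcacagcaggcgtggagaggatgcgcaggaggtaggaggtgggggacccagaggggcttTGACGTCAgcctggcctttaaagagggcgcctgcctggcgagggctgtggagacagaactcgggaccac

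In Akr1b7 the letters AAGGTCA lie on the opposite strand, from 48 to 42 bases before the start, and include the single AGGTCA of that window. In Cyp21a1 they lie on the gene's strand, from 216 to 210 bases before it. Cyp11a1 holds AGGTCA at 2 places, 229 and 95 bases before the start, without the extra A. The Th window holds TGACGTCA, which reads the same on both strands, from 69 to 62 bases before the start, and the Dbh window holds none of these motifs. Of all 33469 windows of this length, 14.1% hold AGGTCA, 3.99% AAGGTCA and 1.59% TGACGTCA. The arrangement that PPAR binds, AGGTCA repeated on 1 strand with a spacer of 1 base, is in 0.0508% of windows and in none of the 5. These matches describe letters and show no binding.

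Akr1b7 was higher in the pioglitazone pool. It encodes an aldo-keto reductase that in the mouse adrenal cortex is induced by corticotropin and removes an aldehyde left by side-chain cleavage of cholesterol. Its single spot (probe A_44_P1058932) read 784 with vehicle and 1800 with pioglitazone. After scaling this was a difference of 1.12 with a technical error of 0.20, or 2.17-fold. It ranked 14 from the top among 10484 measured genes, those well above background on both arrays.

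Genes were called at 1.5-fold with a difference over 2 times the technical error, and Akr1b7 was the only member called, 1 of 4 measured. Over all measured genes 0.754% were called higher and 1.76% lower, and since the difference of Akr1b7 helped to choose the genes, nothing is read from that count. Fewer cells of a type and less RNA per cell cannot be told apart in whole-kidney RNA. Over 14 alternative settings the difference of Akr1b7 lay between 1.05 and 1.20. With 5 scalings other than the 75th percentile it was between 1.09 and 1.20.

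The reading of Akr1b7 rests on 1 spot, and the noise of single spots was read from other probes printed 10 times on each array. In 470 spots of 47 such probes with signals within 2-fold of its own (594 to 2376), the spot-to-spot SD of the difference was 0.06 and the farthest spot lay 0.33 from its probe's median. Among all 1480 replicate spots at signals of 100 or more, 1 strayed 2-fold, with 268000 on the vehicle array against 4240 on the other. The spot of Akr1b7 carried no outlier flag. The 7 neighbouring spots measured on both arrays had differences from -0.63 to 0.14, with a median of -0.22, all below that of Akr1b7. It lies in the seventh of 10 bands of grid rows, and the sixth and the seventh held a larger share of discordant dim spots than the rest (given with Cyp11b1), and the part of its position in the result was not tested.

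Cyp11b1, the 11-beta-hydroxylase that completes corticosterone, was well above background in the vehicle pool alone. Its single spot (probe A_44_P151638) read 28.9 with vehicle and 1.42 with pioglitazone. The second value was not well above background, so only a bound is given. The scaled processed signal of this spot was at least 4.27-fold lower with pioglitazone. This sets the vehicle signal against the lowest signal well above background on the pioglitazone array, 7.16, and it depends on the processing. Of 10858 genes detected on either array, 0.635% were detected with vehicle alone at a bound of 1.5-fold or more, and 14 genes (0.129%) reached the bound of Cyp11b1. With normexp background correction, which adds an offset of 50, the bound was 1.46-fold, under the 1.5-fold threshold. Whether the probes of the closely related Cyp11b genes also bind each other's transcripts was not tested.

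The raw pixels of that spot were also compared. Its median pixel exceeded the local background by 36.0 on the vehicle array and by 10.0 on the pioglitazone array. In 153 negative control spots the same quantity had a median of 4.50 and a maximum of 12 with vehicle, and a median of 6 and a maximum of 23.0 with pioglitazone. The vehicle reading therefore lay above all negative controls, and the pioglitazone reading lay within their range.

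A neighbouring spot showed the same pattern. Of the 8 spots around that of Cyp11b1, 6 were measured on both arrays, with differences from -0.29 to 0.14. A diagonal neighbour, the probe of Bin2a, read 23.7 with vehicle and 1.42 with pioglitazone, and so was also detected with vehicle alone. Bin2a was singled out after its values were seen. Both spots lie in the sixth band of grid rows. In the sixth and the seventh bands together 1.98% of 809 spots with vehicle signals from 20 to 40 were not well above background with pioglitazone, against 0.493% of 3044 such spots elsewhere. In the opposite direction the shares were 2.28% and 0.794%. The part of grid position in the reading of Cyp11b1 was not tested. Among 370 spots of 37 replicated probes within 2-fold of 28.9, 0 were not well above background with pioglitazone and 1 with vehicle, and 3 strayed 2-fold.

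The other steroid enzymes among the members with a probe were not well above background on either array. Cyp11a1, which starts all steroid synthesis, read 3.08 and 2.06. Cyp11b2, the aldosterone synthase, read 2.82 and 2.97. Cyp21a1, the 21-hydroxylase, read 7.15 and 5.04, under the lowest signals counted as well above background, 7.66 and 7.16. For comparison, negative control spots had a median signal of 1.75 and 1.61 and a 95th percentile of 2.33 and 2.10. All 3 passed the software's weaker test on both arrays, positive and significant against background. No fold is given for them, since neither array had them well above background.

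**Figure D1:**
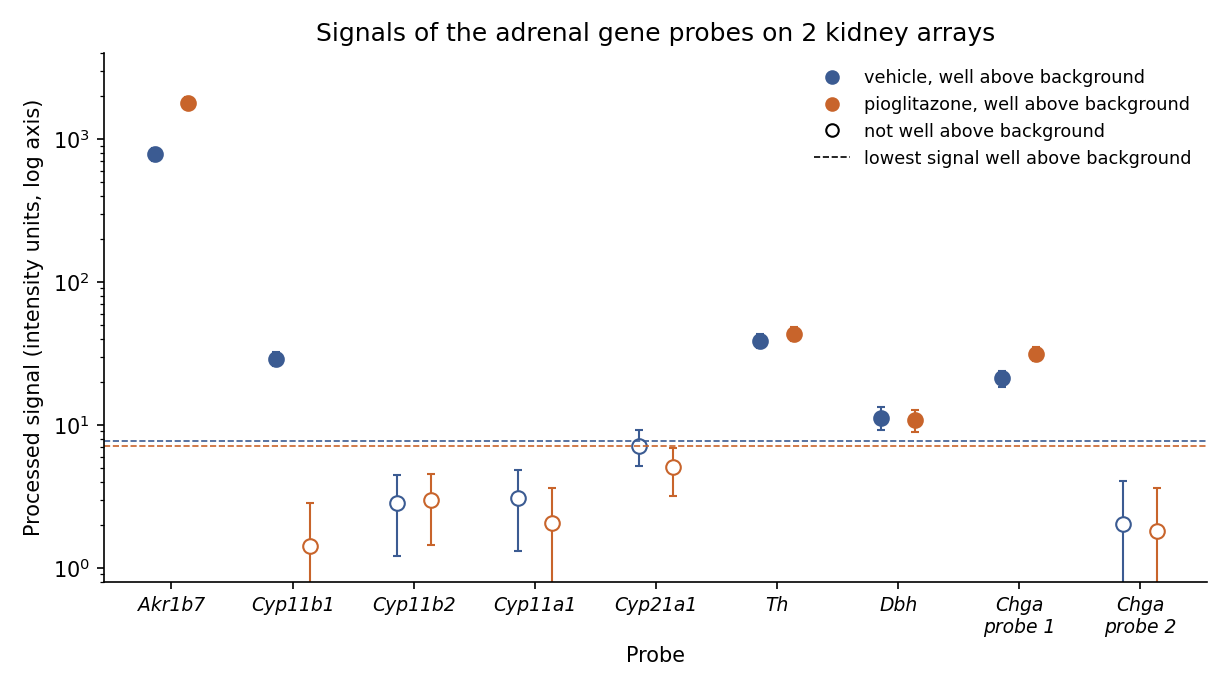
Processed signal (log axis, intensity units) of each member probe on the vehicle and the pioglitazone array. Points are spot values (for Th the mean of 9 spots), bars the software's error of a spot, open points are not well above background, and the dashed lines mark the lowest signals well above background, 7.66 and 7.16. Akr1b7 read 784 and 1800, Cyp11b1 was detected with vehicle alone, and Cyp11a1, Cyp11b2 and Cyp21a1 were open on both arrays. Probes bind with different strength, so only the colours of 1 probe can be compared.

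The members detected on each array were counted. With vehicle 5 of the 8 genes with a probe were well above background, against 78.9% of all named genes. With pioglitazone it was 4 of 8, against 80.0%. Neither array detected 3 of the 8, against 19.2% of all named genes. The members were chosen partly on these signals, so the counts are a description.

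Th, Dbh and Chga, genes of catecholamine synthesis and storage, were detected on both arrays and none was called. Tyrosine hydroxylase, the product of Th, sets the rate of catecholamine synthesis, and its probe (A_44_P301729) was printed 10 times. A single spot had an outlier flag on the vehicle array, where it read 53.8 against 45.9 with pioglitazone, and it was left out. The other 9 spots ranged from 31.3 to 47.7 with a median of 39.6 on the vehicle array. On the pioglitazone array they ranged from 40.3 to 45.5 with a median of 43.0. The ranges overlapped.

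The means for Th were 38.7 ± 5.01 (SD, n = 9 spots) and 43.4 ± 1.70 (SD, n = 9 spots). Spots of 1 array share 1 RNA pool and are not replicates of the treatment. The difference was 0.09, with an SD of 0.16 over the 9 spots, and 7 of the 9 spots were higher with pioglitazone after scaling. With the flagged spot kept it was 0.05, and 7 of 10 spots were higher. Its technical error, 0.22, is that of a single spot and not of the mean over spots. The difference was smaller than this single-spot error in either case.

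**Figure D2:**
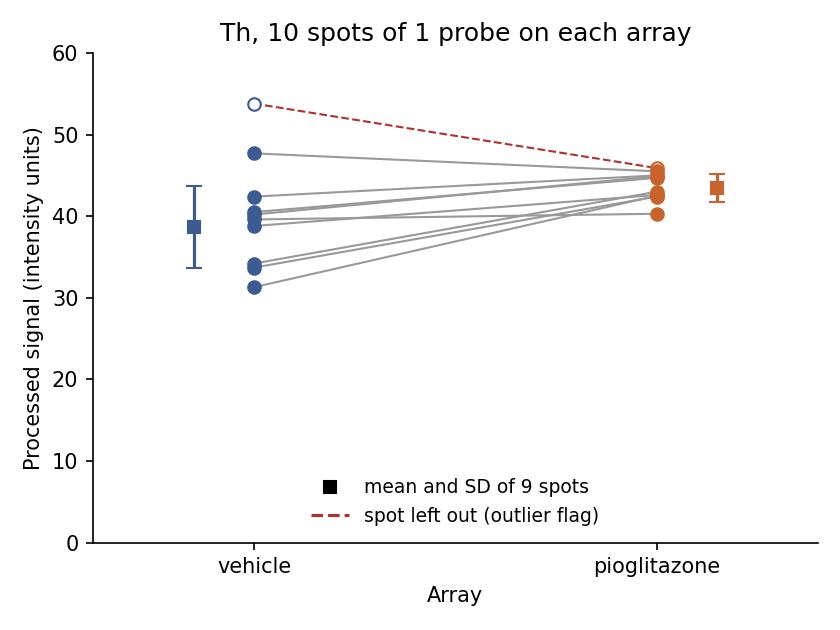
Processed signal of the 10 Th spots on each array, with a line joining the same grid position. Squares with bars are the mean and SD of 9 spots (38.7 ± 5.01 with vehicle and 43.4 ± 1.70 with pioglitazone), and the dashed line is the flagged spot that was left out. The spots spread more widely on the vehicle array and the ranges overlap.

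Dbh encodes dopamine beta-hydroxylase, which turns dopamine into noradrenaline. It read 11.2 and 10.8 from 1 spot (A_44_P381686), a difference of -0.13 with a technical error of 0.36. Among 280 replicate spots within 2-fold of its signal (5.50 to 22.0), 70 were not well above background with vehicle and 71 with pioglitazone. This window reaches below the lowest signals counted as well above background, 7.66 and 7.16. The counts therefore do not show how often spots as bright as that of Dbh are lost. The readings of Dbh did not differ beyond their technical error.

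Chga was represented by 2 probes that disagreed on detection. The brighter (A_44_P300328) read 21.1 and 31.3, a difference of 0.49 with a technical error of 0.24. It fell short of 1.5-fold, and lay just under 2 times its error. Over 5 other scalings the difference was 0.47 to 0.57, short of 1.5-fold each time, though past 2 times the error under 4 of them. The other (A_42_P616342) read 2.02 and 1.81, not well above background on either array. Of 370 spots of replicated probes near the brighter probe's signal, 19 strayed from their probe's median by at least 0.49. With normexp correction the difference was 0.14.

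**Figure D3:**
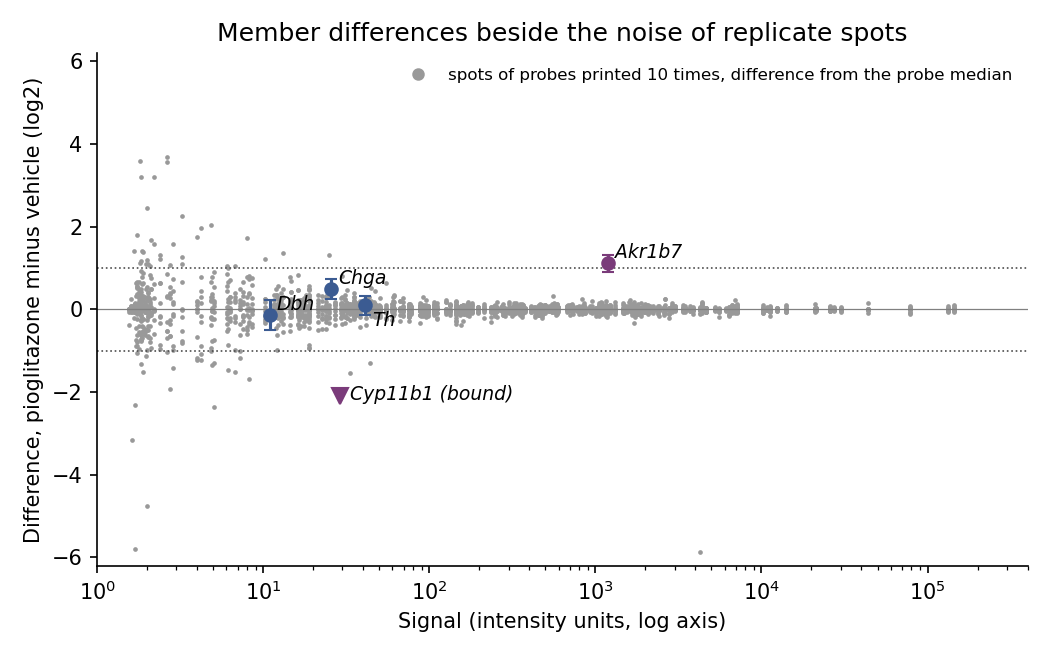
Difference between arrays (log2, pioglitazone minus vehicle) against signal (log axis). Grey points are spots of probes printed 10 times, drawn as the distance from their probe's median difference. Coloured points are the members with their technical error, the triangle is the bound of Cyp11b1, and dotted lines mark 2-fold. The grey points widen at low signals, and Akr1b7, at 1.12, lies above the replicate spots near its signal. The grey point at the lower right is the spot that read 268000 and 4240.

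Further genes of the adrenal cortex gave no call. Of 24 listed genes, 22 had a probe and 18 were measured, and 0 were called higher and 0 lower. Over all measured genes 0.754% were called higher and 1.76% lower. The absence of calls in a list this short, here and below, is therefore near the background share, and nothing is read from it. Their median was 0.02, against 0.03 over all measured genes, and the sign of the list's median turned between scalings (-0.02 to 0.10). Mc2r, the corticotropin receptor that marks cortical cells, read 1.93 and 1.76 and was not well above background on either array, and no probe was matched to Nr5a1. Mrap, its accessory protein, which fat cells also use, read 427 and 599. Its difference of 0.406 lay just under the limit of 2 times its error, 0.409. Without scaling, which removed a shift of 0.08, it would pass that limit.

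Other genes on this cortical list are active in many tissues. The brightest probes were those of Stard3, a cholesterol transporter of late endosomes (14000 and 14700), and of Fdx1, the ferredoxin that feeds electrons to mitochondrial P450 enzymes (5750 and 6130). The steroid dehydrogenase Hsd3b2 was at 0.36, within 2 times its error (0.32). The steroid enzymes Cyp17a1 (33.2 and 39.5) and Hsd3b1 (13.9 and 11.7) were also well above background on both arrays, and Hsd3b5 on neither. Agtr1b, an angiotensin receptor of the adrenal and pituitary glands, had 10 spots. They ranged from 26.1 to 35.5 with a median of 29.8 on the vehicle array, and from 36.6 to 44.9 with a median of 41.5 with pioglitazone. These unscaled ranges lie just apart, 35.5 against 36.6, by less than the shift that scaling removes. After scaling, all 10 spots were higher with pioglitazone, by 0.13 to 0.57. The scaled difference of 0.36 ± 0.15 (SD over 10 spots) stayed under 1.5-fold. It lay within 2 times its technical error (0.23), which is that of a single spot.

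The cortical markers were also summed on each array. The list of 9 markers had probes for 7, of which 3 were detected with vehicle and 2 with pioglitazone. The defining enzymes Cyp11a1, Cyp11b2 and Cyp21a1 and the receptor Mc2r were not well above background on either array. The 7 unscaled signals added up to 1255 with vehicle and 2412 with pioglitazone, or 471 and 612 without Akr1b7. Most of the remainder was Mrap, at 427 and 599. The steroid enzymes Cyp11a1, Cyp11b1, Cyp11b2 and Cyp21a1 alone summed to 41.95 and 11.49, of which Cyp11b1 gave 28.9 and 1.42. The sum without Akr1b7 therefore follows Mrap, and the enzyme sum follows Cyp11b1, whose difference helped to choose the genes. No direction is read from the other enzymes, which were not well above background. Probes bind with different strength, so such a sum compares the arrays and not the genes.

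Further genes of chromaffin cells gave no call either. Of 26 listed genes, 24 had a probe and 19 were measured, with a median of -0.05 whose sign turned between scalings (-0.07 to 0.03). The largest differences were those of the prohormone convertase Pcsk1 (-0.52), the vesicular monoamine transporter Slc18a2 (-0.48), the transcription factor Gata3 (-0.43) and the growth factor receptor Ret (-0.43). Of these 4, Gata3 alone exceeded 2 times its error (0.20), at 197 and 155, and it is also a gene of the collecting duct. Ddc, which makes dopamine in both chromaffin cells and proximal tubule, read 18300 and 19000. Scg2, a granule protein, was detected with pioglitazone alone, at 7.81 and 12.5. Its bound of at least 1.51-fold is the scaled ratio of these readings and lies within 2 times their technical error (0.45), and 0.617% of genes detected on either array had a bound of 1.5-fold or more.

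The 8 markers of the medulla had 6 probes, of which 4 were detected with vehicle and 5 with pioglitazone. Chgb, which is stored in the same granules as Chga, read 7.12 and 5.04, not well above background on either array. Slc18a1, the monoamine transporter of chromaffin cells, read 19.4 and 19.2. The 6 signals summed to 105 and 122.

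Nerve and Schwann cell genes were measured as the other possible source of Th and Dbh in kidney. Of 14 genes, 9 were measured and 0 were called, with a median of 0.10. The neuropeptide Npy, a cotransmitter of sympathetic nerves, read 553 ± 18.6 and 629 ± 26.8 (SD, n = 10 spots), a difference of 0.10. After scaling, all 10 of its spots were higher with pioglitazone, by 0.007 to 0.22. Peripherin (Prph), a filament of peripheral neurons, was at 0.33 and the growth cone protein Gap43 at 0.41. Sox10 of Schwann cells was at 0.29, Nefm at 0.15, and all 5 lay within 2 times their technical errors. For Npy and Gap43, which had several spots, that error is of a single spot. The 8 markers of this cell type summed to 737 and 833, with Stmn2 and Nefl among those not well above background on either array, and their part in the signals of Th and Dbh was not tested.

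Some markers of fat cells fell with pioglitazone. Of 12 adipocyte markers, 11 had a probe, 9 were measured, 0 were called higher and 3 lower: resistin (Retn, -2.27), Ucp1 (-1.78) and Cfd (-1.18). Over all measured genes 0.754% were called higher and 1.76% lower. The other measured markers, among them Fabp4, Cidec and Lipe, lay between -0.14 (Cidea) and 0.15 (Lpl). Car3 was detected with vehicle alone, at 38.0 and 7.82. Adipoq read 822 and 814 and Lpl 857 and 1007, and Lep was not well above background on either array. The 11 signals summed to 4462 and 3536, and their part in the readings of Cyp11b1 and Akr1b7 was not tested.

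Akr1b7 belongs to the aldo-keto reductases. Of 17 listed genes 14 were measured, with a median of 0.05, and 1 was called higher (Akr1b7) and 1 lower. Over all measured genes the shares were 0.754% and 1.76%. Akr1b7 helped to choose the genes, and the list was chosen with earlier results known, so nothing is read from these counts. The gene called lower was Akr1b1, aldose reductase, which makes the osmolyte sorbitol in the renal medulla, at 556 and 376 (-0.65, technical error 0.20). Akr1b8, a close relative of Akr1b7, read 2190 and 1880 (-0.30). Akr1c1 read 11800 and 17700, a difference of 0.50 that exceeded 2 times its error without reaching 1.5-fold. Akr7a2 and Akr7a3, the brightest, were at 0.18 and -0.14. Related genes can bind each other's probes, and the probe sequences were not used here.

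The listed genes of renal vitamin D metabolism and response and of mitochondrial P450 enzymes with their partners were all measured, 7 of 7. None was called, at a median of 0.15. Cyp27b1, which activates vitamin D in the proximal tubule, read 94.9 and 141 (0.49), and Cyp24a1, which inactivates it, read 807 and 613 (-0.48). Both exceeded 2 times their error of 0.21 and 0.20 without reaching 1.5-fold. The ferredoxin reductase Fdxr was at 0.19, Cyp2r1 at 0.18 and Fdx1 at 0.01.

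Genes through which the kidney responds to adrenal hormones gave no call. Of 17 corticosteroid receptors and responsive genes 16 were measured, 0 were called and the median was -0.01, with a sign that turned between scalings (-0.03 to 0.07). Hsd11b2, which shields the mineralocorticoid receptor from glucocorticoids, read 45800 and 55300 (0.19), and Hsd11b1 read 19000 and 18600 (-0.11). The glucocorticoid-responsive Klf9 was at 0.38 and Zbtb16 at -0.32, H6pd, which supplies the cofactor of Hsd11b1, at 0.34, and the aldosterone-responsive kinase Sgk1 at -0.32, each within 2 times its error. Of 14 dopamine and adrenergic receptors 10 were measured and 0 were called, with a median of 0.10. The largest differences among these were those of Adra2c (-0.29), Adra1d (-0.29), Adra2a (-0.21) and Drd5 (0.20), and Adra1b, among the brightest, was at 0.13.

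**Figure D4:**
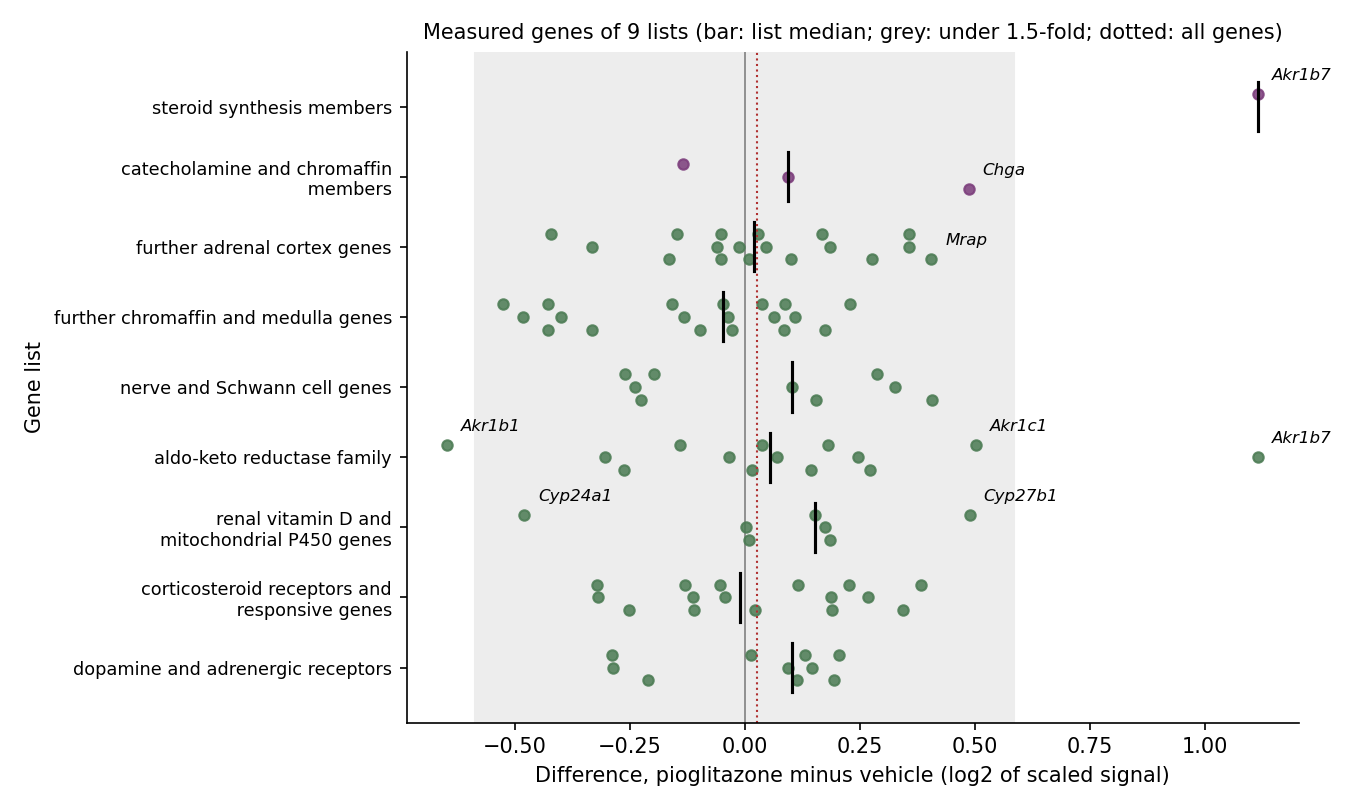
Difference between arrays (log2, pioglitazone minus vehicle) of every measured gene in 9 lists, 1 point per gene, with members in purple in the first and the second row. Black bars are list medians, the grey band holds differences under 1.5-fold, and the dotted line is the median of all measured genes (0.03). Akr1b7, at 1.12, and Akr1b1, at -0.65, are the only genes outside the band. Akr1b7 appears on both lists that hold it.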

How the data were processed

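The submitters' processing notes name Agilent Feature Extraction 10.7.3.1 for the 1-colour Cy3 arrays. Per the file headers, the deposited spot intensity is linear, background-subtracted and spatially detrended, with no normalization across arrays. The value table holds the same intensity at all 45018 features, with column medians of 46.8 and 47.7.

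Control spots and 149 flagged spots were left out, log2 signals were scaled to the 75th percentile, and replicate spots were averaged. Accessions were matched to the GRCr8 gene table, which named 16959 of 40998 probes (41.4%). A gene took its brightest probe, and a multi-spot probe counted as detected when most spots were. A bound sets the detected signal against the higher of the dim signal and that array's lowest signal well above background.

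The members and lists were chosen with earlier results of these data known. Beside the members, the text names per list the 4 measured genes with the largest difference, those with a bound of 1.5-fold or more and the 2 brightest. Some genes that this rule names are not reported here. Genes most similar in pattern were not sought, since 2 arrays hold no pattern. The procedure was tested on simulated data. Python 3.11.15 and limma 3.58.1 (quantile, cyclic loess, normexp) were used. The number of arrays limits the precision.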

Additional observations from a re-analysis of the deposited data

How the results depend on the processing

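Of 295 values recomputed under 15 alternative settings, 282 kept their main value within 1 technical error, or their count within 1.5 times, 13 moved and 0 of the called ones reversed. Against 1 member called higher, 0 lower, 5 detected with vehicle, 4 with pioglitazone and a median of 0.29 over the 4 measured, no filter on dim probes gave 1 lower and a median of -0.0711, because it admits dim probes. The software's weaker detection flag (positive and significant) gave 8 detected with vehicle, 7 with pioglitazone and a median of -0.0075, and it raised the bound of Cyp11b1 to 21.2-fold by lowering the floor. Without the sixth and the seventh bands of grid rows 0 were higher and 3 were detected with vehicle, because Akr1b7 and Cyp11b1 lie there. Extending the alternatives to the list medians was decided after seeing the data. The bound has no value without a filter, without those bands or as a mean over probes. Normexp was run on median signals, and the cause of its smaller differences was not tested. No paired analysis was possible because there is a single array per group.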

Other observations

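The array also holds another rat gene of the 11-beta-hydroxylase family, Cyp11b3, which lies outside the members and was singled out after its values were seen. Its single spot was well above background on both arrays, at 114 and 157, a difference of 0.38 with a technical error of 0.21, within 2 times that error. Cyp11b1 was well above background with vehicle alone and Cyp11b2 on neither array, although Cyp11b2 was positive and significant on both by the weaker test. Binding of these probes to each other's transcripts was not tested.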
